A study of Bos taurus with 12 samples.

Results

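Aminoacyl-tRNA synthetases were examined as 36 genes chosen by name, 20 for the cytosolic enzymes and 16 for the mitochondrial enzymes, whose symbols end in 2. Of these, 31 were matched to a probe of the array through the probe's RefSeq transcript, among 12787 genes with a symbol. All 31 had a probe well above background, as had 7932 genes in all. The cytosolic VARS and the mitochondrial EARS2, LARS2, PARS2 and YARS2 had no matched probe and are not described further. The arrays were hybridised with RNA of mammary biopsies from 6 Holstein dairy cows in midlactation. Each cow was sampled on day 0, at the end of a control period of free access to a lactation diet (CONT), and again on day 6 of a restriction period (REST), in which the feed allowance met 50% of the net energy requirement for lactation (NEL). This gave 6 CONT and 6 REST arrays, 1 of each per cow, and the comparison asked which genes differed within a cow between both days. The design text of the series counts fewer cows than the 6 that had arrays. The study's methods name a Holstein cow left out because of mastitis, and the labels do not say whether it is among the 6. All cows passed from CONT to REST in the same order, so diet and the passage of time cannot be told apart.

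Aminoacyl-tRNA synthetases attach each amino acid to its transfer RNA and so supply the ribosome with its substrates. Cells make proteins in the cytosol and, separately, inside mitochondria, and most amino acids have a cytosolic enzyme and a second enzyme, encoded by another nuclear gene, that is imported into mitochondria. KARS and GARS are exceptions, since each of these genes encodes both forms, and the probes used here were not resolved by form. In the lactating mammary gland, the cytosolic enzymes serve the synthesis of the caseins and other milk proteins. When amino acids run short, uncharged transfer RNA activates the kinase EIF2AK4 (GCN2), and the transcription factor ATF4 then raises asparagine synthetase, serine synthesis genes and many cytosolic synthetase genes in many mammalian cells.

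Levels are log2 fluorescence relative to the 75th percentile of the same array, and a change is the REST level minus the CONT level of the same cow. A gene was called when its Benjamini-Hochberg adjusted p over 19406 tested probes was under 0.1 in limma, fitted with the cow as a block. The brightest tested probe stood for each gene. The 12 arrays lay on 3 slides of 4, the first with cows 1 and 2, the second with cows 3 and 4, and slide 3 with both arrays of cows 5 and 6. The 4 arrays of slide 3 were dimmer, with a 75th percentile signal of 73.2 to 117 against 252 to 390 on the other slides, and 41.9% to 48.0% of probes well above background against 61.8% to 67.9%. Several calls that turned on cows 5 and 6 are therefore given with and without slide 3. The spread over cows and the comparison of gene pairs are given with all 12 arrays only. All 31 synthetase probes were well above background on all 12 arrays, and none was saturated or left out on any array. In bulk tissue, fewer cells of a type and less RNA per cell cannot be told apart.

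By mean level, most cytosolic genes were higher in REST and most mitochondrial genes lower. Of the 19 cytosolic genes, 14 had a higher mean level in REST and 5 a lower one, with a median change of 0.13. Of the 12 mitochondrial genes, 3 were higher and 9 lower, with a median change of -0.09. The median over all 7932 genes was -0.01. Most of these changes were small and did not pass the test. Among cytosolic genes, KARS rose and none fell, which is 5.26% called higher against 7.12% of all genes. Among mitochondrial genes, AARS2 rose, which is 8.33% against the same background, and IARS2 and NARS2 fell, which is 16.7% against 9.1% of all genes called lower. The CONT and REST arrays overlapped for all 31 synthetase genes, whereas 2.31% of all genes had groups that did not overlap.

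**Figure D1:**
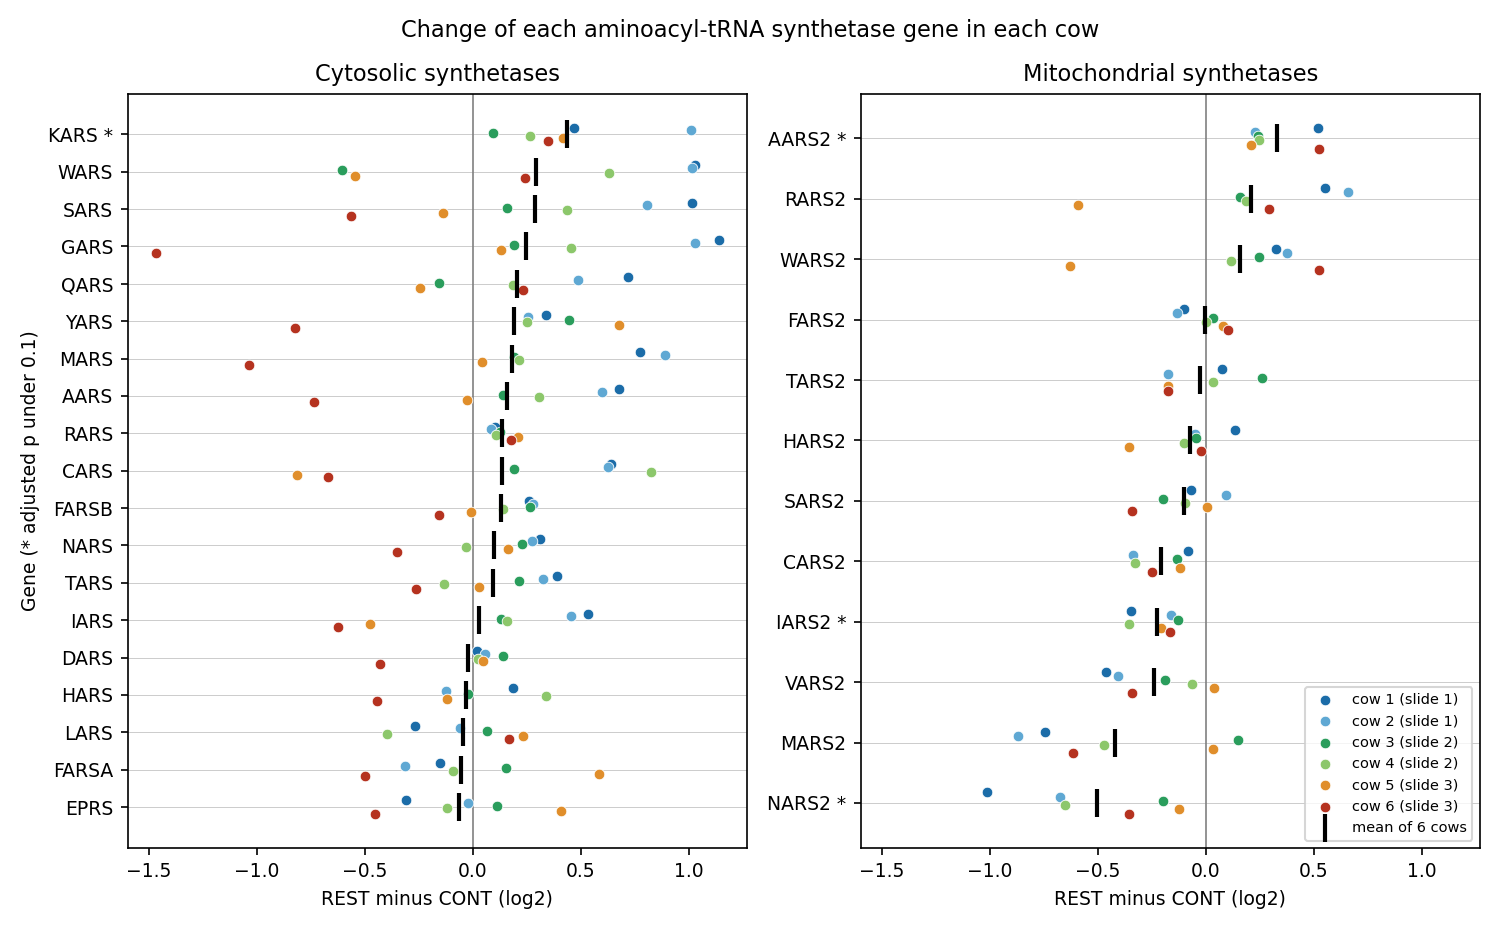
Change from CONT to REST (log2, x axis) of the 19 cytosolic and 12 mitochondrial synthetase genes (y axis) in each of the 6 cows (coloured points), with the mean of the cows as a black bar and an asterisk at genes with an adjusted p under 0.1. The points of cow 6 lie left of 0 for 14 of the 19 cytosolic genes, and the points of each mitochondrial gene lie closer together than those of GARS, MARS, WARS or CARS.

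KARS, lysyl-tRNA synthetase, was at 1.96 to 2.44 in CONT, with a median of 2.24, and at 2.36 to 2.97 in REST, with a median of 2.68. Each cow was higher in REST, by 0.47, 1.01, 0.09, 0.27, 0.42 and 0.35 in cows 1 to 6, and cow 2 stood highest among these changes. The mean change was 0.43 (SE 0.12, 95% interval 0.17 to 0.70), or 1.35-fold, with an adjusted p of 0.0572 in limma. The other tested KARS probe also rose, by 0.51 with an adjusted p of 0.0773.

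AARS2, the mitochondrial alanyl-tRNA synthetase, was at 0.30 to 0.60 in CONT, with a median of 0.45, and at 0.537 to 1.002 in REST, with a median of 0.76. It was higher in REST in 6 of 6 cows, and only the CONT level of cow 2 exceeded the lowest REST level, that of cow 3. The mean change was 0.33 (SE 0.08, 95% interval 0.14 to 0.51), with an adjusted p of 0.0475 in limma. Its second tested probe rose by 0.24 with an adjusted p of 0.099. Without the block for cow, the adjusted p of the brightest probe was 0.117.

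NARS2, the mitochondrial asparaginyl-tRNA synthetase, fell the most of the 31 genes. It was at -0.62 to 0.01 in CONT, with a median of -0.22, and at -1.04 to -0.50 in REST, with a median of -0.69. The levels were lower in REST in 6 of 6 cows, and the CONT array of cow 5 was the single CONT array within the range of REST. The mean change was -0.50 (SE 0.12, 95% interval -0.79 to -0.22), which is 1.42-fold lower, with an adjusted p of 0.0442 in limma. It had 1 tested probe, so no second probe was available to set beside it. After normexp background correction with quantile normalization the change was -0.29, still called (adjusted p = 0.0931).

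IARS2, the mitochondrial isoleucyl-tRNA synthetase, was at 1.80 to 2.03 in CONT, with a median of 1.90, and at 1.59 to 1.85 in REST, with a median of 1.66. It was lower in REST in 6 of 6 cows, and the REST array of cow 3 lay apart from the others at 1.85. The mean change was -0.23 (SE 0.07, 95% interval -0.40 to -0.06), with an adjusted p of 0.0936 in limma, close to the threshold, and of 0.196 without the block. The call was also lost after quantile normalization (adjusted p = 0.108) and a median shift (0.113), and after normexp background correction with the 75th percentile shift the change was -0.10 with an adjusted p of 0.431. Of its other tested probes, one changed by -0.29 with an adjusted p of 0.0936 and one by -0.11 with an adjusted p of 0.456.

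**Figure D2:**
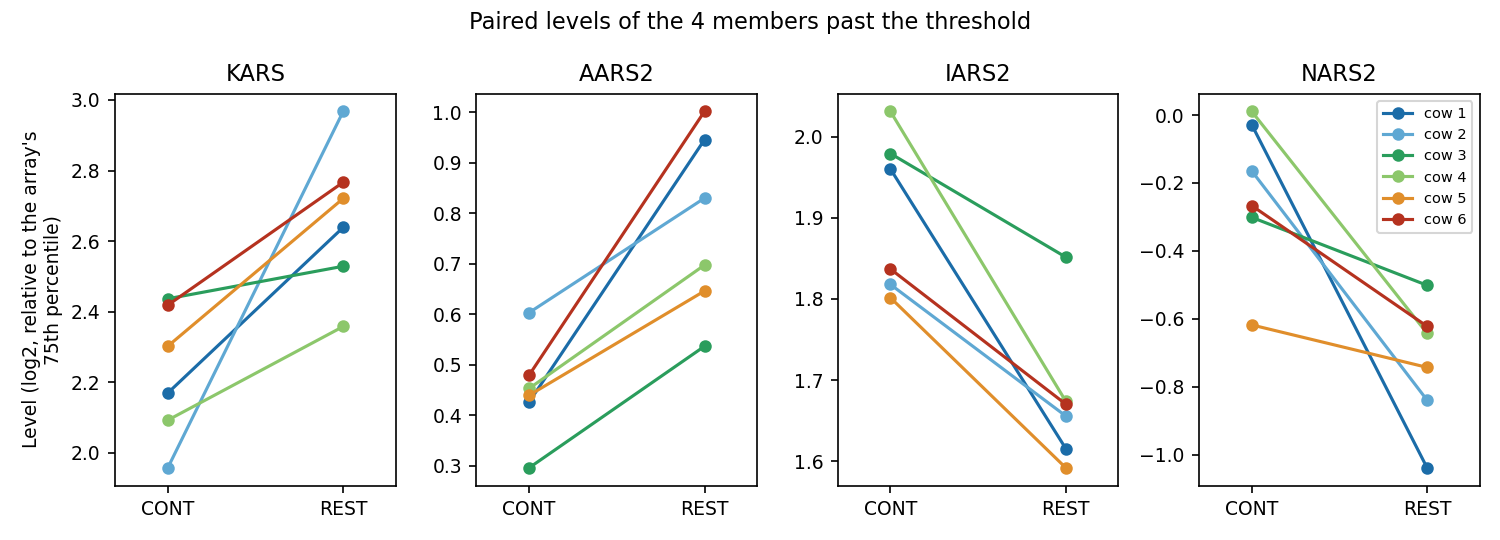
Level of KARS, AARS2, IARS2 and NARS2 (log2 relative to the 75th percentile of the array, y axis with its own range in each panel) in CONT and REST, with a line for each of the 6 cows. Every line rises for KARS and AARS2 and falls for IARS2 and NARS2, and the ranges of CONT and REST overlap in each panel.

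These 4 calls did not hold with every set of 5 cows, although the changes stayed about as large. Without cow 1, 2 or 4, none of the 4 passed the threshold, and the probes called over the whole array also fell, from 3101 to 1506, 1052 and 1190. The change was then 0.43, 0.32 and 0.47 for KARS, 0.29, 0.35 and 0.34 for AARS2, -0.40, -0.47 and -0.47 for NARS2, and -0.20, -0.24 and -0.20 for IARS2. The adjusted p was 0.126, 0.122 and 0.115 for KARS, 0.119, 0.109 and 0.11 for AARS2, 0.101, 0.13 and 0.125 for NARS2, and 0.205, 0.182 and 0.228 for IARS2. IARS2 also missed it without cow 3, 5 or 6, at 0.132, 0.12 and 0.13. Without slide 3, NARS2 changed by -0.64 with an adjusted p of 0.0421, whereas KARS (0.109), AARS2 (0.102) and IARS2 (0.149) missed the threshold. Over 22 alternatives the adjusted p ranged from 0.0152 to 0.172 for KARS, from 0.0182 to 0.161 for AARS2, from 0.011 to 0.152 for NARS2 and from 0.0426 to 0.431 for IARS2. With no block for cow, KARS and NARS2 were called, against 1.61% of all genes called higher and 2.77% called lower.

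Below the threshold, several mitochondrial genes were lower in most cows. MARS2, the methionyl enzyme, was at -1.17 to -0.40 in CONT and -1.34 to -0.95 in REST, with a change of -0.42 and an adjusted p of 0.108, and cows 3 and 5 went the other way. MARS2 was called in 8 of 22 alternatives, as many as IARS2, and after quantile normalization (adjusted p = 0.099) and a median shift (0.0982) it was called and IARS2 was not. After normexp background correction with quantile normalization, the MARS2 change was -0.22 (adjusted p = 0.212). CARS2, the cysteinyl enzyme, was lower in 6 of 6 cows by a mean of 0.21, with an adjusted p of 0.12, but after normexp background correction with the 75th percentile shift its change was -0.03 (adjusted p = 0.821). VARS2, the valyl enzyme, changed by -0.24 with an adjusted p of 0.135 and was lower in 5 of 6 cows. By brightest probe, 3 mitochondrial genes (CARS2, IARS2 and NARS2) were lower in 6 of 6 cows, which is 25.0% against 10.6% of all genes. AARS2 alone was higher in 6 of 6, which is 8.33% against 7.7%. The second tested CARS2 probe changed by -0.14 (adjusted p = 0.267 in limma) and was higher in 1 cow. Each other tested IARS2 probe was also higher in 1 cow, and NARS2 had 1 tested probe. SARS2, HARS2, TARS2 and FARS2, the seryl, histidyl, threonyl and phenylalanyl enzymes, had changes of -0.10, -0.07, -0.03 and -0.00, with adjusted p from 0.457 to 0.982.

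RARS2 and WARS2, the arginyl and tryptophanyl enzymes, were the other mitochondrial genes with a higher mean in REST. They changed by 0.21 and 0.16, with adjusted p of 0.401 and 0.501. By the brightest probe, each was higher in 5 of 6 cows. The exception was cow 5 in each, at -0.59 for RARS2 and -0.63 for WARS2. The CONT array of cow 5 was the highest of its group for both genes, at 1.63 and 0.49. The second tested RARS2 probe changed by 0.08 (adjusted p = 0.594 in limma), with cow 1 at -0.23 and cow 5 at -0.06. Of the other tested WARS2 probes, one was higher in 5 of 6 cows and one in 3 of 6. Without cow 5, RARS2 changed by 0.37 and WARS2 by 0.32, and both were called (adjusted p = 0.0693 and 0.0709 in limma). Without slide 3, which holds cow 5, RARS2 changed by 0.39 and was called (adjusted p = 0.0928), and WARS2 changed by 0.27 and was not (0.128). Without cow 2 the RARS2 change was 0.12, and without cow 6 the WARS2 change was 0.09 (adjusted p = 0.756). WARS2 was called in 1 of 22 alternatives and RARS2 in 2. In the fit without cow 5, 3 mitochondrial genes were called higher, which is 25.0% against 7.53% of all genes, and 3 lower (MARS2, NARS2 and VARS2), against 9.49% of all genes.

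Among the cytosolic genes, those of the multi-synthetase complex were described first. This complex holds 8 of the listed genes together on the scaffolds AIMP1, AIMP2 and EEF1E1. KARS was the only subunit called. The median change of the 8 subunits was 0.08, with 5 higher and 3 lower. QARS, the glutaminyl enzyme, changed by 0.20 with an adjusted p of 0.35, while its other probes changed by 0.24 (adjusted p = 0.2) and 0.40 (adjusted p = 0.0572), so that 1 of 3 QARS probes passed. RARS, the arginyl enzyme, was higher in each cow by 0.08 to 0.21, the most even change of the 31 genes (SD over cows 0.05), with an adjusted p of 0.248. MARS, the methionyl enzyme, changed by 0.18, and IARS, EPRS, DARS and LARS, the isoleucyl, glutamyl-prolyl, aspartyl and leucyl enzymes, by 0.03, -0.06, -0.02 and -0.04, with adjusted p from 0.633 to 0.925. Counted over cytosolic genes, KARS and RARS were higher in 6 of 6 cows, which is 10.5% against 7.7% of all genes. The scaffold genes AIMP1, AIMP2 and EEF1E1 changed by 0.30, -0.00 and 0.08, and none was called (adjusted p = 0.187, 0.994 and 0.683).

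The 11 cytosolic genes outside the complex had a median change of 0.13, with 9 higher and 2 lower and none called. WARS, SARS and GARS, the tryptophanyl, seryl and glycyl enzymes, had the highest mean changes of this group, at 0.29, 0.29 and 0.24, with adjusted p of 0.448, 0.37 and 0.626. YARS, AARS and CARS, the tyrosyl, alanyl and cysteinyl enzymes, followed at 0.19, 0.16 and 0.13. This order did not hold with cow 1 left out, where WARS, SARS and GARS changed by 0.15, 0.14 and 0.07 and YARS by 0.16. FARSB, NARS and TARS, the beta subunit of the phenylalanyl enzyme and the asparaginyl and threonyl enzymes, changed by 0.13, 0.10 and 0.09. HARS, the histidyl enzyme, and FARSA, the alpha subunit partnered with FARSB, changed by -0.03 and -0.05. The adjusted p of these genes, from YARS to FARSA, ran from 0.365 to 0.879 in limma. Probes of the same gene mostly gave the same direction. Of 17 genes with several tested probes, 15 had the same sign in each, and the exceptions were FARSA (-0.05 and 0.08) and LARS (-0.04 and 0.03), none of whose probes passed. Counted by probe, 3 of 39 cytosolic probes were called, all higher (7.36% of all probes), and 5 of 19 mitochondrial probes, 2 higher and 3 lower (8.62% of all probes called lower).

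The change varied more from cow to cow for many cytosolic genes than for the mitochondrial ones. The SD of the change over the 6 cows had a median of 0.37 for cytosolic genes, 0.17 for mitochondrial genes and 0.25 for all genes. It exceeded 0.5 for 7 cytosolic genes (AARS, CARS, GARS, MARS, SARS, WARS and YARS) and for no mitochondrial gene. In AARS, GARS, MARS, SARS and YARS the lowest change was that of cow 6, at -0.73, -1.47, -1.04, -0.56 and -0.82. Their SDs rest in part on that cow and were not computed without it. MARS was the 1 complex subunit among the 7, and the median SD was 0.31 for the complex subunits and 0.51 for the other cytosolic genes. These spreads were compared as values, without a test.

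GARS showed the widest spread. Its levels in cows 1 to 6 were 3.38, 3.75, 3.16, 4.40, 3.05 and 3.87 in CONT and 4.52, 4.78, 3.35, 4.85, 3.18 and 2.41 in REST. The REST array of cow 6 was the lowest of all 12, while the CONT array of that cow lay among those of the other cows. The changes were therefore 1.14, 1.03, 0.19, 0.45, 0.13 and -1.47. The second GARS probe gave 1.12, 0.99, 0.04, 0.58, 0.12 and -1.39, so the difference between cows was seen with both probes. SARS changed by 1.02, 0.81, 0.16, 0.44, -0.14 and -0.56 and MARS by 0.77, 0.89, 0.19, 0.22, 0.04 and -1.04. WARS went differently, with 1.03, 1.01, -0.60, 0.63, -0.55 and 0.24, and its 4 tested probes each gave this order of signs. For 5 of the 7 genes, the REST array of cow 6 was the lowest REST array, and WARS and CARS were the others.

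**Figure D3:**
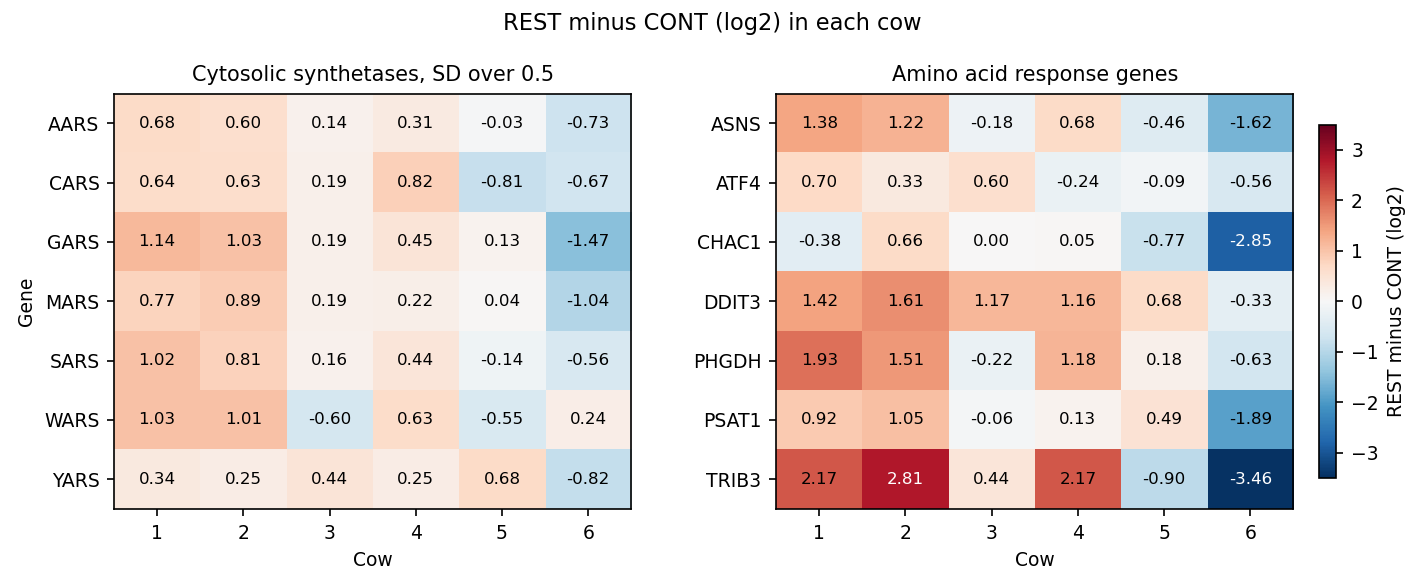
Change from CONT to REST (log2, colour and printed value) in cows 1 to 6 (x axis) for the 7 cytosolic synthetase genes with an SD over 0.5 (left) and the 7 measured amino acid response genes (right). Cows 1 and 2 are mostly red and cow 6 mostly blue on both sides, with WARS at 0.24 in cow 6.

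The cytosolic genes as a whole showed a like order of cows, with cows 1 and 2 highest and cow 6 lowest. Cow 6 was also lowest for the mitochondrial genes, but there cow 3 was highest. The SD of the medians of the 6 cows was 0.30 for cytosolic and 0.06 for mitochondrial genes. The median change of the 19 cytosolic genes was 0.39, 0.32, 0.14, 0.19, 0.04 and -0.44 in cows 1 to 6, with 16, 15, 16, 14, 11 and 5 of 19 genes higher. The median of the 12 mitochondrial genes was -0.08, -0.15, -0.01, -0.08, -0.12 and -0.17, below 0 in each cow. The medians of all genes lay between -0.05 and 0.01. The cytosolic median exceeded the mitochondrial median by 0.22 over all arrays and by 0.47, 0.47, 0.15, 0.27, 0.17 and -0.27 within cows, thus in 5 of 6. By slide, the cytosolic median was 0.36, 0.14 and -0.12 on slides 1 to 3, and the mitochondrial median -0.08, -0.10 and -0.17. Cows and slides cannot be fully separated here, as each slide held only 2 cows.

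**Figure D4:**
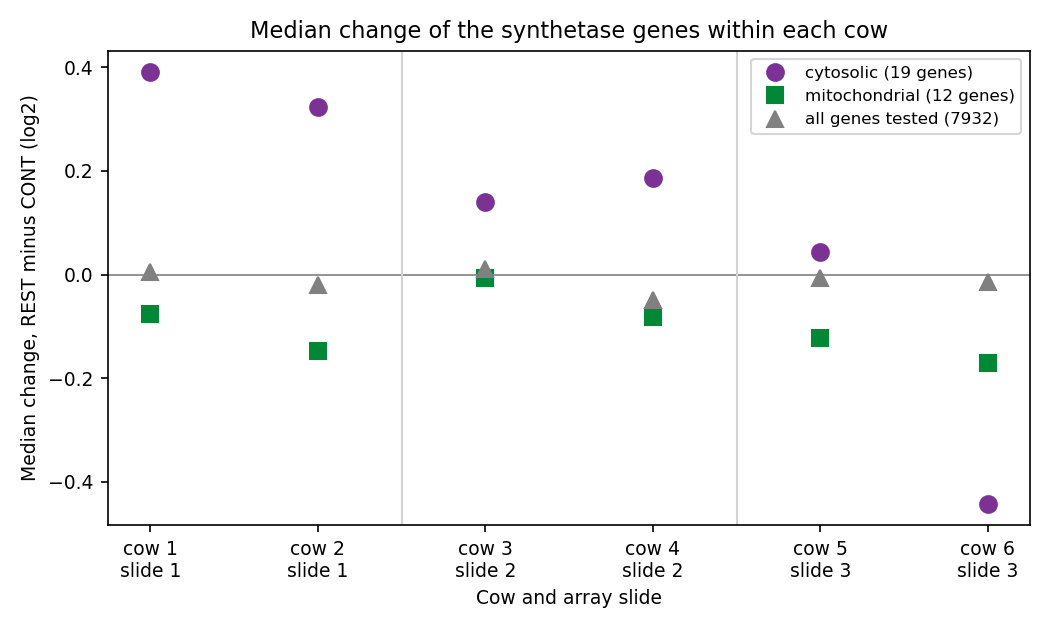
Median change from CONT to REST (log2, y axis) of the 19 cytosolic genes (circles), the 12 mitochondrial genes (squares) and all 7932 genes tested (triangles) within each cow, ordered by slide (x axis). The circles run from 0.39 in cow 1 to -0.44 in cow 6, while the squares stay between -0.17 and -0.01.

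The calls among cytosolic genes moved with these cows. Without cow 6, 18 of 19 cytosolic genes had a higher mean in REST, the median change was 0.19, and 3 were called higher (GARS, KARS and YARS), which is 15.8% against 6.2% of all genes. Without slide 3, a setting chosen after the data had been seen, 6 were called higher, which is 31.6% against 7.44% of all genes. These were AARS (0.43), CARS (0.57), GARS (0.70), MARS (0.52), SARS (0.60) and YARS (0.32), with adjusted p from 0.0416 to 0.082, and the median change was 0.31. Without cow 1 or cow 2 the median was 0.06, and no cytosolic gene was called, as without cow 4. Other measures of the arrays were set beside this spread. The 75th percentile signal was higher in REST in each cow, by 0.28, 0.35, 0.17, 0.28, 0.45 and 0.25 on the log2 scale, and both arrays of cow 6 were on the dim slide 3 with those of cow 5. The part of these values in the spread was not tested.

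Genes of the amino acid response, listed as 9 genes of which 7 had a tested probe, were set beside the cytosolic synthetases. Their SD over cows had a median of 1.07. ASNS, asparagine synthetase, changed by 1.38, 1.22, -0.18, 0.68, -0.46 and -1.62 in cows 1 to 6. TRIB3, a pseudokinase gene induced by ATF4, changed by 2.17, 2.81, 0.44, 2.17, -0.90 and -3.46. In both genes, cows 1, 2 and 4 were clearly higher in REST and cow 6 clearly lower, and neither mean change was called (0.17 and 0.54, adjusted p = 0.791 and 0.671). PHGDH and PSAT1, enzymes of serine synthesis, had mean changes of 0.66 and 0.11, with cow 6 at -0.63 and -1.89. DDIT3 (CHOP), a stress-induced transcription factor gene, was the 1 gene of the 7 that rose (14.3% against 7.12% of all genes), by 0.95 (SE 0.23, adjusted p = 0.0408 in limma, and 0.185 without the block), in 5 of 6 cows with cow 6 at -0.33. ATF4 mRNA, whose product is controlled largely at translation, changed by 0.12 with an adjusted p of 0.669. CHAC1, a glutathione-degrading enzyme gene, changed by -0.55 with an adjusted p of 0.384, and its probe was well above background on 6 CONT arrays but on only 4 of the 6 REST arrays, the lowest being those of cows 5 and 6 on slide 3. The other 6 genes were lower in REST in cow 6, as was the CHAC1 signal. For TRIB3, DDIT3 and CHAC1, the CONT array of cow 6 was the highest of its group, at 2.23, 2.88 and 0.13 against at most 1.06, 2.28 and -0.35 in the other cows. The REST level of DDIT3 in cow 6, 2.55, lay among those of the others. Cows 5 and 6, which make up slide 3, had the lowest median changes of this list, at -0.09 and -1.62. The fit without slide 3 was chosen after the data had been seen. In it, 4 of the 7 genes were called higher, which is 57.1% against 7.44% of all genes. These were TRIB3 (1.90), DDIT3 (1.34), PHGDH (1.0996) and ASNS (0.78), with adjusted p from 0.00639 to 0.0921 in limma, while PSAT1, ATF4 and CHAC1 changed by 0.51, 0.35 and 0.08.

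Where an amino acid had a measured gene in each compartment, the 2 were compared within cows. This gave 12 pairs over 11 amino acids, since FARS2 was paired with both FARSA and FARSB, and the comparison was chosen with the values of the single genes known. The cytosolic change exceeded the mitochondrial change in 9 pairs. The widest differences were for asparagine, where NARS exceeded NARS2 by 0.60 in 6 of 6 cows, and for methionine, where MARS exceeded MARS2 by 0.60 in 5 of 6 cows. For NARS and NARS2, the exact two-sided sign-flip permutation test over 6 cows gave p = 0.03125, the smallest it allows, and 0.375 after Benjamini-Hochberg adjustment over the 12 pairs. No pair passed after adjustment, but with 6 cows and 12 pairs a single pair cannot go below this adjusted value, so the exact test could hardly have called one. The order was turned for alanine, where AARS2 exceeded AARS and the difference was -0.17, for arginine (-0.07) and for FARSA with FARS2 (-0.05).

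**Figure D5:**
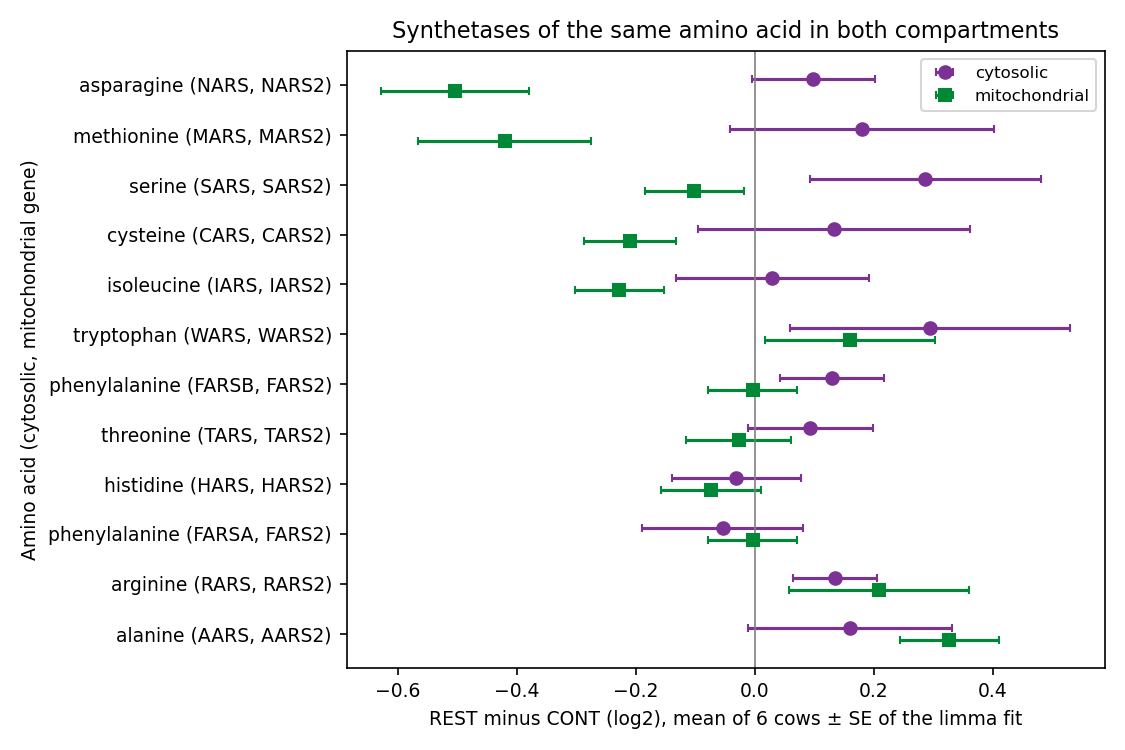
Mean change from CONT to REST (log2, x axis; bars are the SE of the limma fit over 6 cows) of the cytosolic (circles) and mitochondrial (squares) gene of each amino acid (y axis). The circle lies right of the square in 9 of 12 pairs, with the widest gaps of 0.60 for asparagine and methionine.

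Of 20 further genes that work with these enzymes, 18 had a probe and 13 were tested, with 1 called higher, which is 7.69% and close to the 7.12% of all genes, and none lower. Their median change was 0.06. The called gene was DTD1, an editing enzyme that removes D-amino acids from transfer RNA. It changed by 0.39 (SE 0.09, adjusted p = 0.0426 in limma) and was higher in 6 of 6 cows. In mitochondria, glutaminyl-tRNA is made by an amidotransferase rather than by a synthetase of its own, and its measured subunits QRSL1 and GATC changed by 0.08 and -0.11 without being called. TUFM and EEF1A1, which carry charged transfer RNA to the mitochondrial and the cytosolic ribosome, changed by -0.14 and 0.06 with adjusted p of 0.31 and 0.689. ELAC1, which trims transfer RNA ends, changed by 0.29 with an adjusted p of 0.115.

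The tissue label was checked against markers. The mean level of 9 measured milk protein and luminal keratin genes was 7.47 to 7.85 in CONT and 7.54 to 7.89 in REST, far above the 75th percentile of each array. In this list 3 genes were higher and 6 lower by mean. KRT8 and KRT18 rose, by 0.72 and 0.52 (adjusted p = 0.00875 and 0.0675 in limma), against 7.12% of all genes called higher. The casein genes CSN1S1 and CSN3 fell, by 0.26 and 0.27 (adjusted p = 0.0933 and 0.0794), against 9.1% called lower. CSN1S2, LALBA, PAEP, GLYCAM1 and KRT19 changed by -0.18, -0.19, -0.17, -0.19 and 0.13 without being called. Each measured milk protein gene was lower in all 6 cows. None of the 5 listed adipocyte genes was tested, and 3 of them had a probe. Of 6 myoepithelial genes, 3 were lower and 3 higher by mean, with a median change of -0.03. Of these, CNN1 and ACTA2 fell, by 0.53 and 0.37 (adjusted p = 0.0329 and 0.0873 in limma), against 9.1% of all genes called lower. KRT14, MYH11, KRT5 and OXTR changed by -0.17, 0.11, 0.26 and 0.17 without being called. The mean level of the list was 2.73 to 3.47 in CONT and 2.61 to 3.36 in REST. Of 5 endothelial genes, VWF rose by 0.54 (adjusted p = 0.00727), against 7.12% of all genes called higher, while PECAM1, TEK, CDH5 and KDR changed by 0.32, 0.13, 0.03 and -0.15 without being called. The mean level of the list was 0.17 to 0.76 in CONT and 0.48 to 0.65 in REST. Of 6 tested leukocyte genes, 3 were higher and 3 lower by mean. CD3E alone was called and rose by 0.35 (adjusted p = 0.0767 in limma), against 7.12% of all genes called higher. The mean level of the list was 0.50 to 0.76 in CONT and 0.54 to 1.02 in REST. No fibroblast gene of 6 was called, with a mean level of 1.91 to 2.81 and 1.42 to 2.90. By cow, the median change of the endothelial list was 0.36, 0.48, 0.14, 0.30, 0.44 and -0.32 in cows 1 to 6, above 0 in cows 1 to 5 and lowest in cow 6, as was that of the cytosolic synthetases. The medians were -0.94, -0.71, 0.52, 0.14, -0.16 and -0.69 for the fibroblast list, -0.24, -0.23, -0.14, -0.09, -0.05 and -0.14 for the milk protein and keratin list, -0.31, -0.31, -0.12, 0.25, -0.12 and -0.11 for the myoepithelial list and -0.14, -0.07, 0.36, -0.01, 0.24 and -0.10 for the leukocyte list. Without the block for cow, VWF was the only one of these marker genes still called. The part of these cell types in the synthetase values was not tested.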

How the data were processed

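The authors extracted total RNA from mammary biopsies, labelled cRNA with Cy3 and hybridised 12 one-colour Agilent bovine arrays. The scanned images were processed, per the study's methods, with Agilent Feature Extraction 11. Fluorescence intensity of 45220 spots per array was deposited as scanner output. The deposited value table equals the processed intensity in all 45220 cells of each array, with column medians from 10.2 to 56.3, so its scale is linear and uncentred. Arrays give no read depth, and their number limits the precision. No column was left unmatched to a sample (0).

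Spots marked as non-uniform or as outliers were left out and repeat spots averaged. From the deposited intensity, log2 values were computed minus the 75th percentile of each array. Of 43653 probes, the 19406 well above background on every array of at least 1 group were tested with limma 3.58.1 in R 4.3.3, with cow as a block. The pairing comes from the animal identity in the labels, and the study's methods do not state a block. Residuals of the same cow correlated at 0.36 to 0.57 and those of different cows at -0.33 to 0.13. The threshold was an adjusted p of 0.1, after the study's methods. The p-values measure the spread between 6 cows. Probes were named through RefSeq transcripts, and the brightest tested probe was used per gene. All called members were given in full, with the others by change and adjusted p or range. Members and lists were chosen with earlier results of these data known. A gene of the partner list is not reported here and was left out of its counts. Alternatives covered the block, normalization, background correction, filters, probe choice and leaving out each cow. The fit was tested on simulated data. The study's genome build differs from that of the gene table, so no coordinates are given. Figures were drawn with matplotlib 3.10.9.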

Additional observations from a re-analysis of the deposited data

Results flagged for a closer look

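In 62 groups of 6 arrays (31 genes in CONT and in REST), 5 had a lowest or highest array whose gap to its neighbour was a large share of the range of the group by Dixon's criterion, of which chance gives about 1 in 20, or 3.1. For FARSA in REST, cow 6 was lowest at 1.28 against 1.52 to 1.58 in the other cows (gap 0.785 of the range). For HARS in REST, cow 4 was highest at 2.10 against 1.37 to 1.58 (0.715). For RARS in CONT, cow 1 was highest at 1.75 against 1.55 to 1.62 (0.627). For IARS2 in REST, cow 3 was highest at 1.85 against 1.59 to 1.67 (0.684). For RARS2 in CONT, cow 5 was highest at 1.63 against 0.816 to 1.095 (0.656).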

How the results depend on the processing

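Over 22 alternatives, the cytosolic median change, the mitochondrial median change and their difference kept their sign. The choices of block, trended robust fit, t-test and deposited table could not move these medians, so their sign was fixed there. The probes called numbered 3101 with the cow as a replicate block, 831 with no replicate block, 1901 with slide as a block, 384 with no filter on dim probes, 1845 and 732 with the methods' t-test, paired and unpaired, and 1052 to 3288 with 1 cow left out. Of cytosolic genes, 2 were called after normexp with the 75th percentile shift, 2 if any tested probe counted, 0 with no filter, 6 without slide 3, and 0 to 3 with 1 cow left out. Of mitochondrial genes, 1 was called with no replicate block, 0 with no filter, 5 with a trended robust fit, and 0 to 6 with 1 cow left out. In limma, the paired fit with the cow as a block called AARS2 and IARS2, which limma with no replicate block did not, and it changed no other call of the 31 genes. The methods' t-test, paired by cow, lost KARS (adjusted p = 0.133) and NARS2 (0.119) and called RARS (0.0525) and CARS2 (0.0853), and unpaired it called the same 4 genes as the blocked limma fit. Signs turned only for genes that were not called with all 6 cows in the blocked fit. After normexp with the 75th percentile shift, DARS was 0.107, EPRS 0.0281, FARSA 0.0555, HARS 0.0695, HARS2 0.0479 and TARS2 0.0971. After normexp with quantile normalization, DARS was 0.0166, HARS2 0.0011 and TARS2 0.0421. Without slide 3, DARS was 0.0604, HARS 0.0945 and TARS2 0.0475, and over all tested probes FARSA was 0.013. With 1 cow left out, the change ran from -0.0719 to 0.1601 for IARS, -0.0986 to 0.0273 for LARS, -0.0249 to 0.0227 for FARS2, -0.0841 to 0.0031 for TARS2, -0.0051 to 0.3221 for CARS, -0.0566 to 0.0577 for DARS, -0.158 to 0.0141 for EPRS, -0.1814 to 0.0352 for FARSA and -0.1049 to 0.0513 for HARS. The cause of these shifts was not tested. The unpaired test and the fit without slide 3 were added after the data had been seen. Median changes of all genes moved by less than 0.1 under each scaling. Signal over background was lower on slide 3 than on the other slides.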
